A study of Mus musculus with 4 samples.

Results

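The transcripts described here are those of 10 mouse genes whose products clear quinones, carbonyls and epoxides: *Nqo1*, *Nqo2*, *Akr1b3*, *Akr1b8*, *Cbr1*, *Cbr3*, *Ephx1*, *Ugdh*, *Ptgr1* and *Abcc1*. They were taken by gene name from a table of 55450 genes, all 10 are protein-coding, and all 10 passed the filter on low counts that left 16269 genes for testing. RNA was sequenced from wild-type MLO-Y4 cells, a mouse osteocyte-like line derived from bone, in 2 unloaded and 2 loaded samples. Loaded cells grew on silicone membranes coated with type I collagen and, from 60% confluency, were stretched equally in all directions for 12 h, with a strain of 20% and a frequency of 0.5 Hz. Unloaded cells reached the same confluency on ordinary 6-well culture plates and stood in the incubator of the same device for 12 h. Stretch therefore came together with another growth surface, and their effects cannot be told apart in these libraries. All samples are of 1 cell line, and the labels do not say whether replicates were separate cultures, so the p-values measure only the spread between these samples, which may be technical.

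Quinones, reactive aldehydes and epoxides arise from oxidized lipids, hormones and foreign compounds, and they bind to proteins and DNA when they are not removed. Cells reduce the quinones and carbonyls, open the epoxides with water, attach glucuronate or glutathione to the products and pump the conjugates out. Many genes of these steps are known targets of the transcription factor NRF2, which is active in oxidative stress and binds antioxidant response elements, and some, such as *Nqo1*, are also known targets of the aryl hydrocarbon receptor.

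The libraries held between 28941994 and 32185693 counts, so that 3 counts, the limit a count of 0 allows, correspond to between 0.093 and 0.103 CPM (counts scaled to the same library total), with counting error alone considered. CPM values below also include TMM factors, which correct for library composition. Of the lineage markers, those of the osteocyte and osteoblast list summed to between 2385 and 2548 CPM. Most of this came from *Col1a1* (931 to 1032 CPM), *Cd44* (654 to 749 CPM) and *Gja1* (485 to 584 CPM). *Phex*, an osteocyte marker of the list, was at 43.7 to 55.8 CPM. The late markers *Dmp1* (12 to 14 counts), *Sost* (0 to 4 counts) and *Mepe* (0 counts in every library) were at or near 0. So were *Fgf23* (0 to 9 counts), *Bglap* (0 to 4 counts), *Alpl* (0 to 14 counts) and *Sp7* (0 to 25 counts) of this list. *Runx2*, also of the list, was at 48.5 to 56.4 CPM. The macrophage and osteoclast list summed to between 1569 and 1593 CPM, nearly all from *Csf1r* (1558 to 1584 CPM), with *Ptprc* at 0 to 3 counts and *Adgre1* at 0 to 4 counts. The endothelial list reached at most 3.1 CPM, the adipocyte list at most 9.29 CPM and the epithelial list at most 0.723 CPM. *Pdpn*, an early osteocyte marker, was at 143 and 151 CPM in unloaded and at 215 and 228 CPM in loaded cells.

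Upstream sequences are shown for the gene with the clearest difference between the groups (*Nqo1*), for its paralogue (*Nqo2*) and for the member whose window holds matches to the antioxidant response element core (*Ugdh*). Each is the 250 bases before an annotated transcription start, read 5′ to 3′ on the strand of the gene from the RefSeq promoter windows of GRCm38.p6. A window was found for 8 of the 10 members, and *Akr1b3* and *Abcc1* had none. Capitals mark matches to 3 motifs searched on both strands, TGACNNNGC (the core of the antioxidant response element), TGACTCA (the AP-1 site, whose letters followed by GC also match the first) and GCGTG (the core of the xenobiotic response element).
Nqo1 (chr8:107403206-107403455, minus strand): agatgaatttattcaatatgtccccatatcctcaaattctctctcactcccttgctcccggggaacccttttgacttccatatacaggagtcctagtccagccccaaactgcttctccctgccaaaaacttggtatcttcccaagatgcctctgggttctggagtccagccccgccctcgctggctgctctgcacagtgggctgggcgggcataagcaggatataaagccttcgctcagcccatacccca
Nqo2 (chr13:33964409-33964658, plus strand, the first of 2 windows): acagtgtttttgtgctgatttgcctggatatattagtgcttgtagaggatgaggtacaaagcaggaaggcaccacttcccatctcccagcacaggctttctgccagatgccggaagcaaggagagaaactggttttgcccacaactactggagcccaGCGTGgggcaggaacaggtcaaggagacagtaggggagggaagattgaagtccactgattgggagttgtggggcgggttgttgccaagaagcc
Ugdh (chr5:65435843-65436092, minus strand): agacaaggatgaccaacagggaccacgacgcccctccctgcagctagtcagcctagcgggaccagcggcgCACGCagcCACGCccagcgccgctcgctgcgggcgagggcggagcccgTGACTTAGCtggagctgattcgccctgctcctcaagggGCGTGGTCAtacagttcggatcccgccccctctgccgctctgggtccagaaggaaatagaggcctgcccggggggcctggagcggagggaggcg

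In the windows, which also include 50 bases after the start, *Ugdh* held TGACNNNGC at positions -132 (as TGACTTAGC) and -94 (on the opposite strand, as GCGTGGTCA), counted in bases from the start. The match at -94 overlaps a GCGTG, and more of these lie at -180 and -172. *Nqo2* held GCGTG at -93 in the window shown and at -137 in the other. TGACNNNGC was thus found in 1 of the 8 members with a window, TGACTCA in 0 and GCGTG in 4 (*Ugdh*, *Nqo2*, *Akr1b8* and *Cbr1*). Among all 32851 windows of this length the shares were 12.4%, 5.2% and 32.4%. A match is a run of letters and no evidence of binding, and nothing follows from windows that lack one.

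*Nqo1* was 1.59-fold higher in loaded than in unloaded cells, a difference that passed an adjusted p of 0.05 but not the 0.01 used as the threshold. *Akr1b3* was somewhat higher and *Nqo2* and *Ephx1* somewhat lower, none of these passed after adjustment, and the other 6 genes had 95% intervals that included no change. As RNA of whole cultures was measured, fewer cells with a transcript and less of it per cell cannot be told apart. With the quasi-likelihood F test of edgeR, 0 of the 10 genes passed an adjusted p of 0.01, beside 0.0983% of all tested genes (2 higher and 14 lower). At 0.05, 1 of the 10 passed, *Nqo1*, beside 0.904% of tested genes in either direction and 0.338% in the higher direction. DESeq2, the tool of the study, called 1 of the 10 higher at an adjusted p of 0.01, again *Nqo1*, and 0 of the 10 lower. Beside these stand 1.36% higher and 1.55% lower of the genes to which it gave an adjusted p. By an unadjusted p of 0.05 in edgeR, 4 of the 10 passed (*Nqo1*, *Nqo2*, *Akr1b3* and *Ephx1*), beside 14.3% of all tested genes.

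The direction of change was mixed, with 6 log2 fold changes above 0 and 4 below. Their median was 0.04, and 0.01 without *Nqo1*, against -0.01 for all tested genes, of which 48.5% were above 0. In 4 of the 10 genes both loaded libraries lay above both unloaded ones (*Nqo1*, *Akr1b3*, *Akr1b8* and *Cbr3*), beside 22.1% of all tested genes. In another 4 both lay below (*Nqo2*, *Ephx1*, *Ugdh* and *Abcc1*), beside 24.5%.

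**Figure D1:**
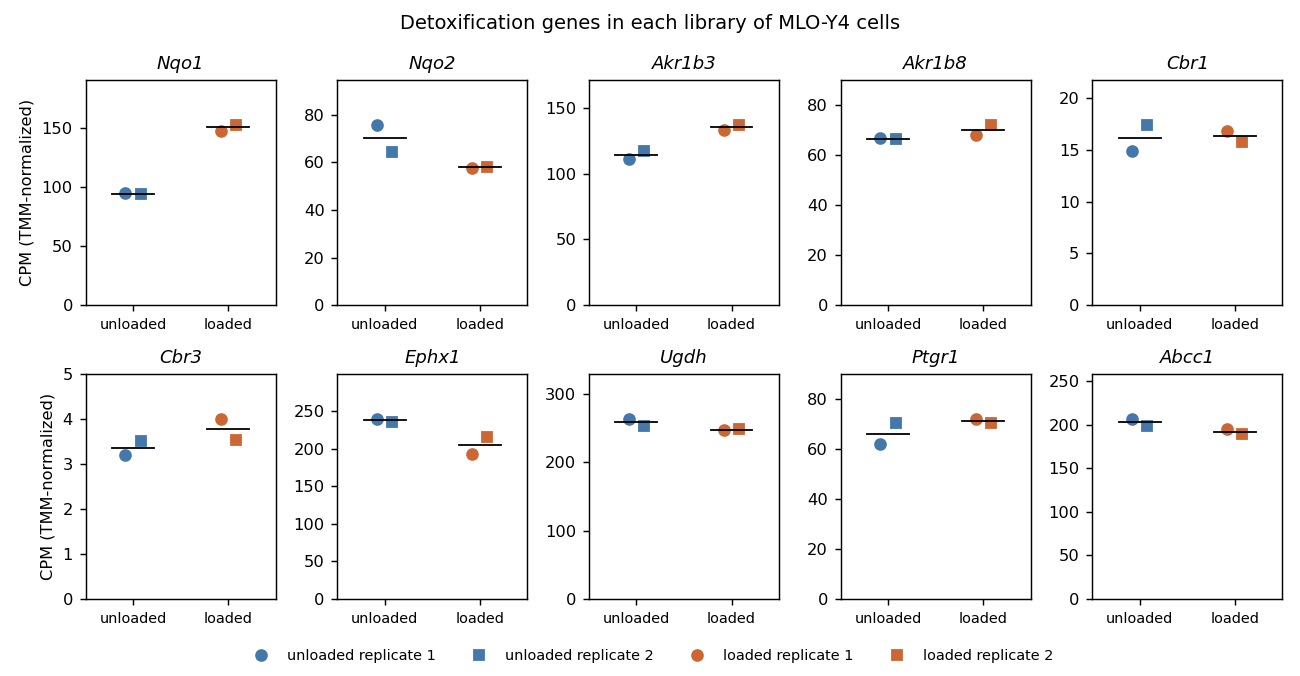
TMM-normalized CPM (vertical axes from 0, each gene on its own scale) of the 10 genes in the unloaded (blue) and loaded (orange) libraries, with circles for replicate 1, squares for replicate 2 and a line at the group mean. *Nqo1* lies at 95.2 and 94.1 CPM in unloaded and at 148 and 153 CPM in loaded libraries, while the groups of *Cbr1* and *Ptgr1* overlap.

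**Figure D2:**
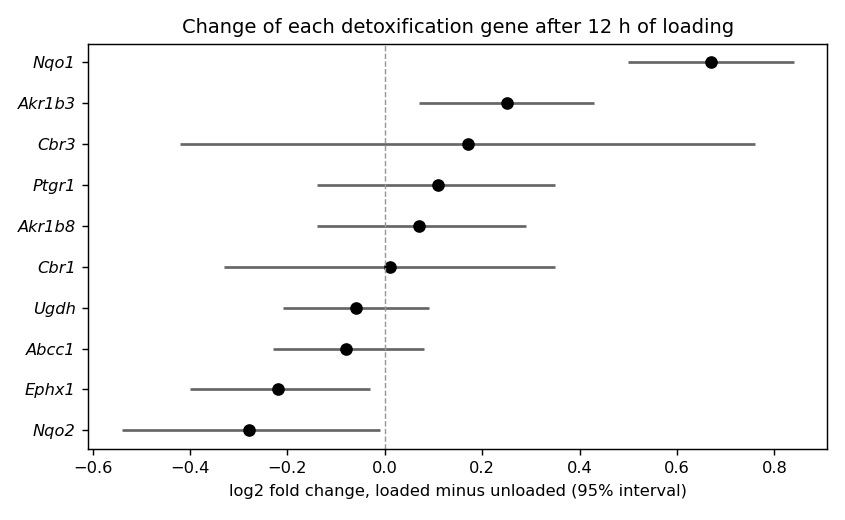
Log2 fold change, loaded minus unloaded, of each gene (points) with its 95% interval from edgeR's quasi-likelihood fit (lines). *Nqo1* has the highest value, 0.67, and *Nqo2* the lowest, -0.28, and 6 of the 10 intervals cross the dashed line at 0.

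NQO1 and NQO2 are flavoproteins that reduce quinones directly to hydroquinones, NQO1 with NADH or NADPH and NQO2 with dihydronicotinamide riboside. *Nqo1* (ENSMUSG00000003849.8, chr8:107388225-107403206, minus strand) had 95.2 and 94.1 CPM in the unloaded libraries and 148 and 153 CPM in the loaded ones. The groups were far apart, at 94.7 ± 0.728 CPM and 151 ± 3.88 CPM (SD, n = 2 each). The log2 fold change was 0.67 (SE 0.0701, 95% interval 0.50 to 0.84), a fold of 1.59 with an interval of 1.41 to 1.79 (edgeR unadjusted p = 6.8e-05, adjusted p = 0.0216). *Nqo1* was the 9th gene by unadjusted p among those higher in loaded cells. The call at 0.05 was lost without loaded replicate 1 (edgeR adjusted p = 0.0615), without loaded replicate 2 (0.0813) and in the fit with a replicate block (0.0716). Past the threshold of 0.01 were the values of DESeq2 (adjusted p = 2.51e-09) and of the robust edgeR fit (adjusted p = 0.00728).

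*Nqo2* (ENSMUSG00000046949.16, chr13:33964687-33988443, plus strand) had 75.8 and 64.5 CPM in unloaded and 57.5 and 58.2 CPM in loaded libraries. The groups did not overlap, but the unloaded replicates were farther apart from each other than the lower of them was from the loaded ones. Its log2 fold change was -0.28 (SE 0.109, 95% interval -0.54 to -0.01, edgeR adjusted p = 0.33), which became -0.15 without unloaded replicate 1 and -0.39 without unloaded replicate 2. *Nqo2* shares 762 exonic bases with *Serpinb6a*, a protease inhibitor gene on the opposite strand. Of the 50-base windows of its longest transcript, 18.85% occur there. *Serpinb6a* had 8090 and 8098 counts in unloaded and 10136 and 11011 counts in loaded libraries (log2 fold change 0.32, edgeR adjusted p = 0.188), against 1734 to 2201 counts for *Nqo2*. Since strand use in the counting is not stated, reads from the shared stretch cannot be told apart, and their part in the *Nqo2* value was not tested.

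The aldo-keto reductases AKR1B3 (aldose reductase, the enzyme that turns glucose into sorbitol) and AKR1B8 reduce aldehydes with NADPH. Their genes (ENSMUSG00000001642.18 and ENSMUSG00000029762.6) lie on chromosome 6, at chr6:34302434-34317478 on the minus strand and chr6:34354119-34368463 on the plus strand, with 36640 bases between them. *Akr1b3* had 111 and 117 CPM in unloaded and 133 and 137 CPM in loaded libraries. All loaded values were above all unloaded ones, with a log2 difference of 0.25 (SE 0.073, 95% interval 0.07 to 0.43, edgeR adjusted p = 0.209). *Akr1b8* had 66.9 and 66.3 CPM in unloaded and 67.9 and 72.1 CPM in loaded libraries. Its groups were nearly adjoining, and the log2 fold change of 0.07 had a 95% interval from -0.14 to 0.29 (edgeR adjusted p = 0.773). Of the 50-base windows of the longest *Akr1b8* transcript, 2.37% also occur in *Akr1b10* (695 to 783 counts). For the longest *Akr1b3* transcript, 6.57% occur in the gene *Gm38056* (49 to 80 counts). A small part of the reads of *Akr1b8* and *Akr1b3* could thus be split.

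CBR1 and CBR3 are carbonyl reductases of the short-chain dehydrogenase family, of which CBR1 has the broader known range of substrates, quinones and prostaglandins among them. The genes are neighbours on chromosome 16 (ENSMUSG00000051483.9 and ENSMUSG00000022947.8, chr16:93605853-93610505 and chr16:93683215-93690990, both plus strand), 72709 bases apart, and the 3 annotated genes between them had 0 counts in all libraries. *Cbr1* had 14.9 and 17.4 CPM in unloaded and 16.8 and 15.7 CPM in loaded libraries. The groups overlapped, and the log2 fold change of 0.01 had a 95% interval from -0.33 to 0.35 (edgeR adjusted p = 0.982). *Cbr3* had the fewest counts of the 10 genes, 93 and 106 in unloaded and 129 and 105 in loaded libraries, or 3.2 and 3.5 CPM against 4.0 and 3.52 CPM. The loaded values were only just above the unloaded ones. The log2 fold change was 0.17, and its 95% interval, -0.42 to 0.76 (edgeR adjusted p = 0.813), was the widest of the 10 and included both no change and the value of *Nqo1*.

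Microsomal epoxide hydrolase, the product of *Ephx1*, adds water to epoxides to give diols. *Ephx1* (ENSMUSG00000038776.13, chr1:180976210-181020904, minus strand) had 239.9 and 236 CPM in unloaded and 193 and 216 CPM in loaded libraries. Both loaded libraries were below both unloaded ones, and the loaded pair was more spread. The log2 fold change was -0.22 (SE 0.0755, 95% interval -0.40 to -0.03, edgeR adjusted p = 0.277), which became -0.14 without loaded replicate 1 and -0.30 without loaded replicate 2.

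UGDH oxidizes UDP-glucose to UDP-glucuronate, the sugar donor of glucuronidation and also a precursor of hyaluronan and other matrix sugars. *Ugdh* (ENSMUSG00000029201.14, chr5:65413221-65435949, minus strand) had 264 and 253 CPM in unloaded and 248 and 249 CPM in loaded libraries. The values nearly touched, and the log2 fold change of -0.06 had a 95% interval from -0.21 to 0.09 (edgeR adjusted p = 0.718). PTGR1 reduces the double bond of enones, such as those of leukotriene B4 products, oxidized prostaglandins and lipid alkenals. *Ptgr1* (ENSMUSG00000028378.6, chr4:58965439-58987119, minus strand) had 62.0 and 70.6 CPM in unloaded and 72.3 and 70.6 CPM in loaded libraries. The groups overlapped, with a log2 fold change of 0.11 (95% interval -0.14 to 0.35, edgeR adjusted p = 0.689) that ranged from 0.02 without unloaded replicate 1 to 0.20 without unloaded replicate 2.

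ABCC1, also called MRP1, is a membrane pump that exports glutathione and glucuronate conjugates, leukotriene C4 among them. *Abcc1* (ENSMUSG00000023088.17, chr16:14361558-14475737, plus strand) had 207 and 199 CPM in unloaded and 195 and 189 CPM in loaded libraries. The loaded values were slightly lower, with a log2 fold change of -0.08 (95% interval -0.23 to 0.08, edgeR adjusted p = 0.641). For 8 of the 9 genes other than *Nqo1*, all but *Cbr3*, the upper end of the 95% interval lay below the lower end for *Nqo1* (0.50).

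Levels of different genes were compared in TPM, the count per length of the union of exons scaled to the same sum in each library. On this scale the 10 genes spanned from 9.12 ± 0.4 TPM for *Cbr3* to 417 ± 12.5 TPM for *Ephx1* in unloaded cells (SD, n = 2). The order in unloaded cells was *Ephx1*, *Nqo1* (208 ± 5.44 TPM), *Akr1b8* (152 ± 3.78 TPM), *Ugdh* (131 ± 6.34 TPM), *Ptgr1* (98.5 ± 7.22 TPM), *Nqo2* (59.3 ± 7.83 TPM), *Akr1b3* (46.4 ± 1.07 TPM), *Abcc1* (45.9 ± 2.09 TPM), *Cbr1* (21.6 ± 1.95 TPM) and *Cbr3*. The libraries of neighbours in this order overlapped for *Akr1b3* and *Abcc1* and for no other pair. In loaded cells *Ephx1* (352 ± 23.3 TPM) and *Nqo1* (326 ± 4.38 TPM) came close to each other without overlap, *Akr1b3* (54.3 ± 0.495 TPM) stood before *Nqo2* (48.1 ± 0.204 TPM), and the rest of the order was the same. The order depends on the length taken, since with the longest annotated transcript *Abcc1* moves from place 8 to place 5 and *Nqo2* from place 6 to place 8 in unloaded cells. *Akr1b3* stood below *Akr1b8* with either length, although it had more counts (3213 and 3556 against 1943 and 2009 in unloaded libraries). Its exon union (8384 bases) and longest transcript (5024 bases) were well above those of *Akr1b8* (1499 and 1358 bases). Which transcripts the cells made was not tested, so the order of this pair is uncertain.

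The 10 genes together summed to 1208 and 1169 TPM in unloaded and to 1223 and 1258 TPM in loaded libraries. Of this sum *Nqo1* made up 17.6% and 17.5% in unloaded and 26.4% and 26.2% in loaded libraries. *Ephx1* made up 35.2% and 34.9% in unloaded and 27.5% and 29.3% in loaded libraries. Without *Nqo1* the sum was 996 and 965 TPM in unloaded and 899.9 and 929 TPM in loaded libraries. The mean sum was 1188 ± 27.4 TPM in unloaded and 1241 ± 25.0 TPM in loaded cells (SD, n = 2), so that the share of *Nqo1* moved more than the sum did.

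**Figure D3:**
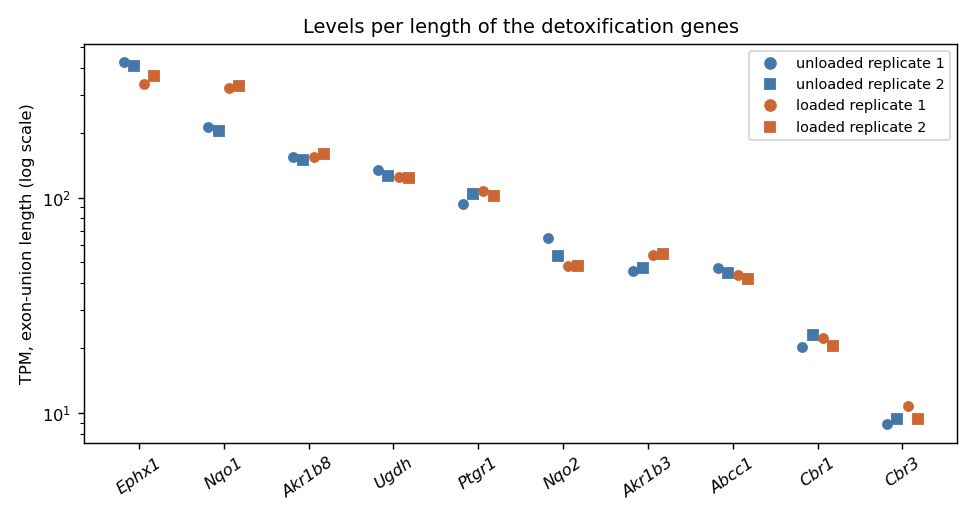
Level per length of the 10 genes, in TPM on a log axis, ordered by the unloaded mean, with a point for each library (blue unloaded, orange loaded, circles replicate 1, squares replicate 2). *Ephx1* and *Nqo1* lie at the top, 417 and 208 TPM in unloaded cells, and *Nqo1* reaches 326 TPM in loaded cells.

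Ratios of paralogues within a library do not depend on the scaling between libraries. *Nqo1* had 1.26 and 1.46 times the counts of *Nqo2* in unloaded and 2.57 and 2.64 times in loaded libraries. The groups were well apart, with a mean log2 ratio higher by 0.94, or 1.92-fold, in loaded cells. The ratio of *Akr1b8* to *Akr1b3* was 0.605 and 0.565 in unloaded and 0.51 and 0.525 in loaded libraries, a log2 difference of -0.18. The ratio of *Cbr3* to *Cbr1* was 0.215 and 0.201 in unloaded and 0.238 and 0.224 in loaded libraries, a log2 difference of 0.15. For each of the 3 pairs the groups did not overlap, and the exact two-sided permutation test gave p = 0.333. This is the smallest p that 2 against 2 libraries allow (0.333 after Benjamini-Hochberg adjustment over 3 pairs). The CPM of single genes did not overlap in 22.1% (loaded higher) and 24.5% (loaded lower) of all tested genes. No such share was computed for ratios. The stretch that *Nqo2* shares with *Serpinb6a* bears on the ratio of that pair. For each pair, only the longest annotated transcripts were aligned. The best local alignment covered 153 bases for *Nqo1* and *Nqo2*, 69 for *Akr1b8* and *Akr1b3* and 819 for *Cbr3* and *Cbr1*. Each alignment is only a part of these transcripts. The transcript taken for *Akr1b3* has 5024 bases, against 1358 for *Akr1b8*. A short alignment therefore does not show how alike the coding sequences are. The longest run of identical bases within it was 14 bases for *Nqo1* and *Nqo2*, 10 for *Akr1b8* and *Akr1b3* and 50 for *Cbr3* and *Cbr1*.

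**Figure D4:**
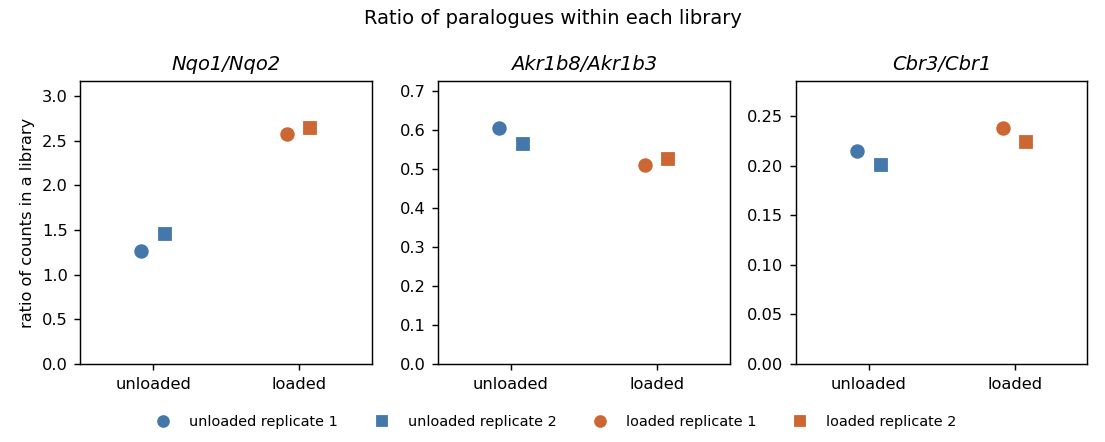
Ratio of counts of 3 pairs of paralogues within each library (vertical axes from 0), unloaded in blue and loaded in orange, circles for replicate 1 and squares for replicate 2. The ratio of *Nqo1* to *Nqo2* lies at 1.26 and 1.46 in unloaded and at 2.57 and 2.64 in loaded libraries, while the other pairs differ by 0.18 or less on the log2 scale.

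The 10 genes were set beside 105 other genes in 10 classes of the same pathways, of which 86 were tested. With edgeR, 0 of the 86 passed an adjusted p of 0.01 (0.0983% of all tested genes did) and 2 passed 0.05, both higher (0.904% of all tested genes passed in either direction and 0.338% in the higher one). DESeq2 called 3 higher and 1 lower at 0.01, beside 1.36% and 1.55% of the 12484 genes to which it gave an adjusted p. Some of the 86, such as *Akr1c18* and *Ugt1a2*, got no adjusted p from DESeq2. The log2 fold changes of the 86 were above 0 in 35 and below 0 in 51, with a median of -0.06. Of all tested genes 48.5% were above 0, with a median of -0.01.

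The list for the aryl hydrocarbon receptor holds the receptor gene *Ahr*, its dimer partners *Arnt* and *Arnt2*, the repressor gene *Ahrr* and known target genes. Of its 10 genes 8 were tested, 6 with a log2 fold change above 0 and 2 below, with a median of 0.11, and 1 passed an adjusted p of 0.05 in edgeR. *Tiparp*, a mono-ADP-ribosyltransferase that represses the receptor, had 114 and 106 CPM in unloaded and 163 and 177 CPM in loaded libraries. It was higher by 0.63 on the log2 scale (SE 0.0802, edgeR adjusted p = 0.0369, 0.0949 with the replicate block). DESeq2 called *Tiparp* at 0.01 (adjusted p = 7.02e-08). *Aldh3a1*, an aldehyde dehydrogenase, had 56.8 and 63.5 CPM in unloaded and 93.8 and 91.4 CPM in loaded libraries. Its log2 fold change of 0.62 missed an adjusted p of 0.05 in edgeR (0.0557, 0.123 with the replicate block) and passed 0.01 in DESeq2 (1.44e-05). *Cyp1a1*, the cytochrome P450 that most typically follows the receptor, had 9.43 and 11.1 CPM in unloaded and 16.7 and 18.2 CPM in loaded libraries (log2 fold change 0.76, edgeR adjusted p = 0.107, DESeq2 adjusted p = 0.0274). The groups of these 3 genes did not overlap, with the loaded values higher, as was so for 22.1% of all tested genes. The rest of the list was lower in value, with *Arnt2* at 0.22 (edgeR adjusted p = 0.674), the target gene *Ugt1a6a* at 0.01 (0.986), *Arnt* at 0.00 (0.991) and *Ahr* at -0.15 (0.438), genes named after their values were seen to complete the list. *Ahrr* had 16 and 26 counts in unloaded and 4 and 25 counts in loaded libraries, with groups that overlapped and a log2 fold change of -0.56 (0.837), and *Cyp1b1* had 0 counts in every library.

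NRF2 and its regulators gave 0 of 8 genes past an adjusted p of 0.05 in edgeR. *Nfe2l2*, which encodes NRF2, had 194 and 192 CPM in unloaded and 181 and 178 CPM in loaded libraries (log2 fold change -0.11, edgeR adjusted p = 0.492). *Keap1*, whose product directs NRF2 to degradation, had 32.4 and 41.6 CPM in unloaded and 36.1 and 35.3 CPM in loaded libraries, with a log2 fold change of -0.05. The loaded values of *Nfe2l2* were a little below the unloaded ones, and those of *Keap1* lay between them. *Bach2*, a repressor that binds the same kind of element, had 14.9 and 11.3 CPM in unloaded and 2.51 and 5.37 CPM in loaded libraries, a log2 fold change of -1.74 that DESeq2 called (adjusted p = 0.000192) and edgeR did not (0.125). *Mafk*, a small MAF partner of NRF2, was at 0.24 on the same scale (edgeR adjusted p = 0.288).

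The enzymes nearest in function to the 10 genes gave 1 gene past an adjusted p of 0.05 in edgeR. *Vat1*, of the quinone oxidoreductase family by sequence, had 271 and 276 CPM in unloaded and 403 and 368 CPM in loaded libraries. It was higher by 0.50 on the log2 scale (SE 0.0676, edgeR adjusted p = 0.0393, 0.114 with the replicate block), as the sole gene of 9 other quinone and flavin reductases tested. Of 8 further aldo-keto reductases 0 passed, and the smallest p-values belonged to *Akr1c18* (log2 fold change 0.71, edgeR adjusted p = 0.426) and *Akr7a5* (-0.31, 0.427). Of 10 short-chain carbonyl reductases, the family of *Cbr1*, 8 had a log2 fold change below 0, with a median of -0.41, and 0 passed. Of all tested genes 48.5% were above 0. The class includes genes of few counts, down to 5 in a library, whose values are uncertain. *Dhrs7* had 37.6 and 36.0 CPM in unloaded and 27.8 and 25.3 CPM in loaded libraries (log2 fold change -0.47, edgeR adjusted p = 0.13), and *Dhrs4* was at -0.48 (0.248). Of 3 enone reductases, the class of *Ptgr1*, *Zadh2* was at 0.39 (edgeR adjusted p = 0.316) and *Ptgr2* at -0.30 (0.322).

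The remaining classes gave 0 genes past an adjusted p of 0.05 in edgeR. Among 14 aldehyde dehydrogenases the log2 fold changes were above 0 in 7 and below in 7, and *Aldh5a1*, which clears succinic semialdehyde, was at -0.52 (edgeR adjusted p = 0.252). Of 4 other epoxide hydrolases, *Lta4h*, which makes leukotriene B4, was at -0.09 (0.64) and *Ephx3*, with 8 to 21 counts, at 1.06 (0.513). Of 15 tested genes that act on UDP-glucuronate or its precursor, the smallest p belonged to *Ugt1a2*, with 8 and 4 counts in unloaded and 61 and 25 counts in loaded libraries (log2 fold change 2.73, edgeR adjusted p = 0.169). The *Ugt1a* genes share their last exons, so the split of reads between them is uncertain, and *Ugt1a7c* was at -0.26 (0.383). Of 9 other efflux pumps, 8 had a log2 fold change below 0, as did *Abcc1*, while 48.5% of all tested genes were above 0. Some of these pumps had few counts, down to 0 in a library. *Abcb1a*, the drug pump P-glycoprotein, was at -0.46 (edgeR adjusted p = 0.158), and *Abcc4*, which exports prostaglandins and cyclic nucleotides, at 0.28 (0.213).

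**Figure D5:**
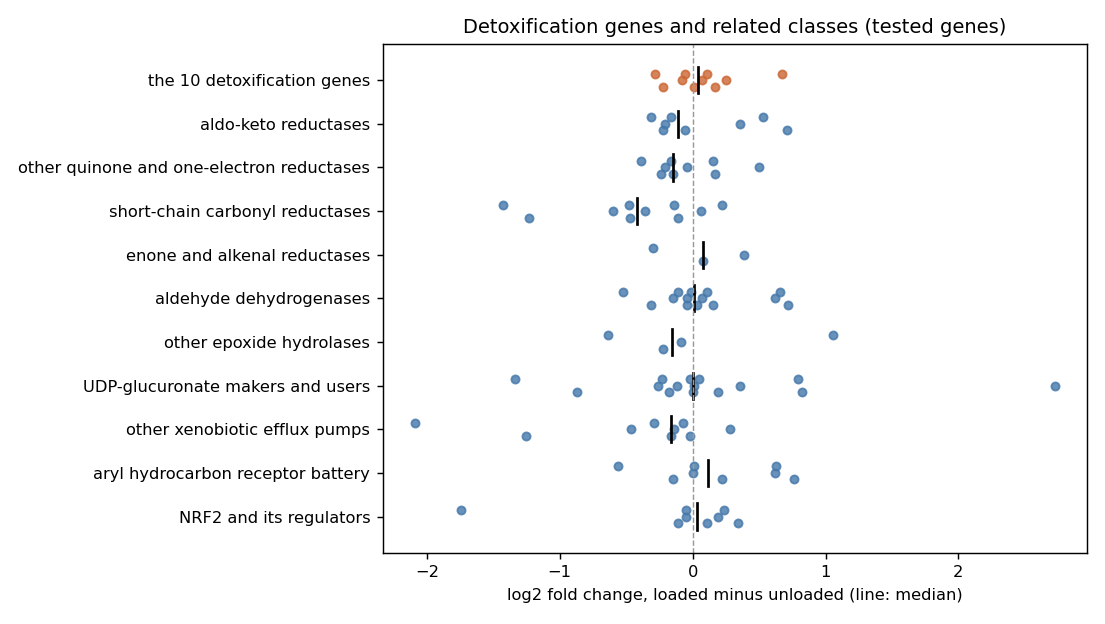
Log2 fold change, loaded minus unloaded, of the 10 detoxification genes (orange) and of the tested genes of 10 related classes (blue), each point a gene and each black line the median of its row. The medians lie between -0.41 for the short-chain carbonyl reductases and 0.11 for the aryl hydrocarbon receptor battery, and the median of the 10 genes is 0.04.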

How the data were processed

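Total RNA of MLO-Y4 cells, depleted of ribosomal RNA, was sequenced from 2 unloaded and 2 loaded samples. Per the submitters' processing notes, reads were aligned to mm10 with HISAT2 2.1.0 and assembled with StringTie 1.3.5, whose output the authors turned into whole-number counts per gene with StringTie's prepDE script. The deposited values are these counts, with no normalization. Annotation release, strandedness and read length are not given in the sources used here. Gene identifiers were matched to GENCODE vM21 (GRCm38.p6), which gave coordinates and exon lengths.

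Counts were filtered with filterByExpr (minimum 10), scaled by TMM factors and tested with the two-sided quasi-likelihood F test of edgeR 4.0.16 in R 4.3.3, and p-values were adjusted by Benjamini-Hochberg over the 16269 genes that passed. The threshold was an adjusted p of 0.01, as in the study, which used DESeq2 1.32.0. A standard error is the absolute log2 fold change divided by the square root of F. TPM is the count per exon-union length scaled to the same sum in each library. DESeq2 1.42.0, limma-voom (limma 3.58.1), other factors and filters, a robust fit, the replicate number as a block and each library left out were alternatives. The study's methods name no pairing, so the block is an alternative only. Over all tested genes the deviations of same-numbered samples had a correlation of -0.057. With 2 libraries per group this rests on 1 comparison and cannot exclude pairing. The fit was tested on simulated data.

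The 10 genes, the lists and the tests were chosen with earlier results of these data known. Besides the 10 genes, genes of a related class are named when past an adjusted p of 0.01 or 0.05, or otherwise when their unadjusted p is among the 2 smallest of the class. The exceptions set with that rule are *Cyp1a1*, *Cyp1b1*, *Tiparp*, *Ahrr*, *Aldh3a1*, *Nfe2l2* and *Keap1*. Cell type markers are given as ranges.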

Additional observations from a re-analysis of the deposited data

How the results depend on the processing

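Across 13 alternatives for each of the 10 log2 fold changes, 125 of 130 results kept their direction and their side of the 0.01 threshold. All alternatives drew on the same 4 libraries. For the 9 genes other than *Nqo1* the main edgeR adjusted p was 0.209 to 0.982, so keeping the side of 0.01 was nearly fixed. DESeq2 (log2 fold change 0.68) and the robust fit (0.67) brought *Nqo1* past the threshold, and *Cbr1*, near 0, changed sign with library totals alone (-0.01), without unloaded replicate 1 (-0.09) and without loaded replicate 1 (-0.03), with a range of -0.09 to 0.12 over libraries left out. The log2 fold change of *Nqo1* ranged from 0.64 to 0.70 over all alternatives. The 10 genes held 1 call with DESeq2, with the robust fit and at an adjusted p of 0.05, in place of 0, and the related genes held 4 with DESeq2 and 2 at 0.05. Over all tested genes, the 16 calls became 363 with DESeq2, 57 with the robust fit, 29 with at least 10 counts in every library, 147 at 0.05, and 0 without a filter on low counts. With the replicate number as a block 0 genes were called at 0.01 (1839 at an unadjusted p under 0.05), and 0 of the 10 genes passed 0.05. Calls numbered between 0 and 58 with a library left out, where the lone sample of a group is assumed to vary like the other group. The count was 0 without either loaded replicate (2225 and 2086 genes at an unadjusted p under 0.05) and 50 and 58 without unloaded replicates 1 and 2. The cause of these differences was not tested. With the longest annotated transcript as length, the summed level of the 10 genes in unloaded cells was 1061 TPM in place of 1188 TPM, since TPM depends on the length assigned to each gene. With 2 libraries per group, intervals were wide for genes of low counts, such as *Cbr3*.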
